A study of Mus musculus with 8 samples.

Results

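The fibrillar collagen genes studied here are 7 of that class, chosen by their symbols from a table of 22200 mouse genes. They are Col1a1, Col1a2, Col3a1, Col5a1, Col5a2, Col5a3 and Col11a1. They were followed in immortalised mouse embryonic fibroblasts (MEFs) of a C57BL/6 background that are labelled TAF4-/-, meaning that they lack TAF4, one of the proteins of TFIID, the complex that recruits RNA polymerase to promoters. The 3 groups were untreated cells labelled 12 h (3 libraries), cells given retinoic acid (RA) for 12 h (3 libraries) and cells given RA for 72 h (2 libraries). The TAF4-/- genotype label is shared by all of them. The sample titles also carry the mark cl1, which the labels do not explain. The study names its line with TAF4 C1 and its TAF4-/- line C3, and whether cl1 means either is not stated. By the study's methods the TAF4-/- cells are 1 line, made by Cre recombination of a floxed Taf4 allele in an earlier MEF line. Its discussion mentions 2 independent TAF4-/- lines, while its RNA-seq methods name C3 cells. If the genotype labels and those methods hold, neither cells with TAF4 nor a further line enter these comparisons. No untreated group was sampled at 72 h, so treatment and further time in culture cannot be told apart in the late group. Nothing in the labels says that the replicates were separate cultures, so the p-values measure the spread between these libraries, which may be technical.

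Fibrillar collagens are the proteins of the banded fibres that give connective tissue its tensile strength, and fibroblasts are their main source. Their alpha chains are hydroxylated and folded in the endoplasmic reticulum, wound into a long helix, secreted as procollagen and trimmed outside the cell before they pack into fibrils and are crosslinked. Col1a1 and Col1a2 encode the chains of type I collagen, the bulk of most fibrils. Col3a1 encodes type III collagen, which is mixed into type I fibrils in compliant tissue. Col5a1, Col5a2 and Col5a3 encode chains of type V collagen, which helps to start fibrils and limits their width, and Col11a1 encodes a chain of type XI collagen, its close relative, best known from cartilage.

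The labels describe tag profiling, in which cDNA bound by its 3′ end is cut with DpnII at GATC and a short tag beside the last site is sequenced. The tags below show which stretch of each mRNA such a library reads, and so what a value stands for. Each was read from the mm9 genome at the last GATC of the longest annotated coding transcript, in the direction of the gene, with the DpnII site in capitals and the 17 bases of the tag in lower case.
Col1a1, chr11:94814121-94814141, plus strand: GATCtctctctttcttctgaa
Col1a2, chr6:4490843-4490863, plus strand: GATCcaactaagtctcctccc
Col3a1, chr1:45406505-45406525, plus strand: GATCtttttttccttccagtc
Col5a1, chr2:27894062-27894082, plus strand: GATCcctctggatgctgccct
Col5a2, chr1:45431376-45431396, minus strand: GATCtcctggtagtttttgtt
Col5a3, chr9:20574566-20574586, minus strand: GATCtgtaccctcccttacct
Col11a1, chr3:113922376-113922396, plus strand: GATCacacaccaatcgtccct
All 7 tags lie in the 3′ UTR, from 47 bases (Col3a1) to 1261 bases (Col11a1) before the annotated transcript end, and none of them was found at the last site of a coding transcript of another gene. These tags follow from the annotation and the labels and were not read from the deposited table, which gives only a total per gene. Shorter annotated coding transcripts of Col1a1 and Col5a2 have other tags, at chr11:94812594-94812614 in the coding part and chr1:45432643-45432663. The totals of these genes may therefore hold more than the tag shown.

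The genes lie on 6 chromosomes of mm9. Col1a1 (ENSMUSG00000001506) spans chr11:94797538-94814356, Col1a2 (ENSMUSG00000029661) chr6:4454814-4491543, Col5a1 (ENSMUSG00000026837) chr2:27741945-27895034 and Col11a1 (ENSMUSG00000027966) chr3:113733458-113923636, all on the plus strand. Col5a3 (ENSMUSG00000004098) spans chr9:20574494-20619511 on the minus strand. Col3a1 (ENSMUSG00000026043), at chr1:45368383-45406551 on the plus strand, and Col5a2 (ENSMUSG00000026042), at chr1:45431166-45560127 on the minus strand, are neighbours on chromosome 1. The annotation places other genes inside the spans of Col1a1, Col5a1 and Col5a3, but 0 of these are in the table under their own identifiers.

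Values are normalised reads per gene. The authors had made the 8 libraries share 1 distribution, so every library totals 9442019 and sequencing depth can no longer be seen. Genes whose coding transcripts hold no GATC were mostly low. With transcripts of 600 to 1000 bases, 0 of 86 such genes had a mean of 100 or more, against 306 of 1464 with a site, and with 300 to 600 bases 1 of 71 had, against 51 of 427. Of ribosomal protein and respiratory chain genes, 11 lacked a site and had a median of 5.03 and a highest mean of 70.7, and 159 had one and a median of 91.8. The values were therefore read as tags, and levels of different genes were not compared with each other. Known RA target genes were higher at both times. Cyp26b1, which degrades RA, was higher by 5.99 and 6.51 on the log2 scale, and Rarb, an RA receptor, by 1.76 and 2.31. Taf4a stood at 984 to 1449 normalised reads in every library, so the table does not show the deletion. Where its tag lies relative to the deleted part was not determined, and a tag outside that part checks nothing. Of the fibroblast markers, Vim was at 82396 to 110139 normalised reads in every library while Thy1 stayed at 1 to 3.5. The other 6, Pdgfra, Pdgfrb, S100a4, Cd34, Twist1 and Prrx1, lay between 118 and 2196. The summed level of the 5 markers each of epithelial cells, leukocytes and cartilage and of the 4 each of endothelium and bone never passed 83.3, with Epcam and Bglap not among the genes measured. The cartilage collagen gene Col2a1 lay between 3.38 and 19.1 normalised reads. Within groups, the libraries fell on either side of a shared axis that held 50.1% of the within-group variance. Side 1 held replicates 1 and 2 of the untreated group, replicate 3 of the 12 h group and replicate 2 of the 72 h group, and side 2 the other 4 libraries. The labels give no batch that matches this split, and changes within each side are given for some of the contrasts. Less RNA per cell and fewer cells that make a transcript cannot be told apart in such bulk libraries.

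After 72 h of RA, 3 of the 7 fibrillar collagen genes were lower than in untreated cells, Col3a1 by 2.69-fold, Col5a3 by 3.89-fold and Col11a1 by 2.21-fold. Of the other 4, Col1a2 was 1.39-fold lower, short of the 2-fold minimum, and Col1a1, Col5a1 and Col5a2 did not pass the test. After 12 h none of the 7 passed. The test was limma on log2(value + 1) over the 12673 genes with a mean of at least 10, all 7 members among them, with Benjamini-Hochberg adjustment over all of them, and a gene is called at an adjusted p below 0.05 with a change of at least 2-fold.

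At 72 h the 3 members called lower stand beside 1.52% of all genes tested called lower and 3.67% called in either direction. With no fold minimum, 4 of 7 members were lower, beside 5.41% of all genes. The median log2 change was −0.50 over the 7 members and −0.02 over all genes tested, and 6 of the 7 changes were below 0, as were 52.9% of those of all genes. The 6 include Col1a1 at −0.02, which turned positive in 3 of the alternatives tried. At 12 h, limma called 0 of 7 members, where 1.42% of all genes tested were called, and 2 members, Col1a1 and Col3a1, had an unadjusted p below 0.05, as had 16.3% of all genes. Between the RA groups, 3 of 7 members were called lower at 72 h than at 12 h, the same 3 genes, beside 0.734% of all genes tested called lower. The contrasts at 72 h share the RA 72 h libraries and so are not independent of each other.

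**Figure D1:**
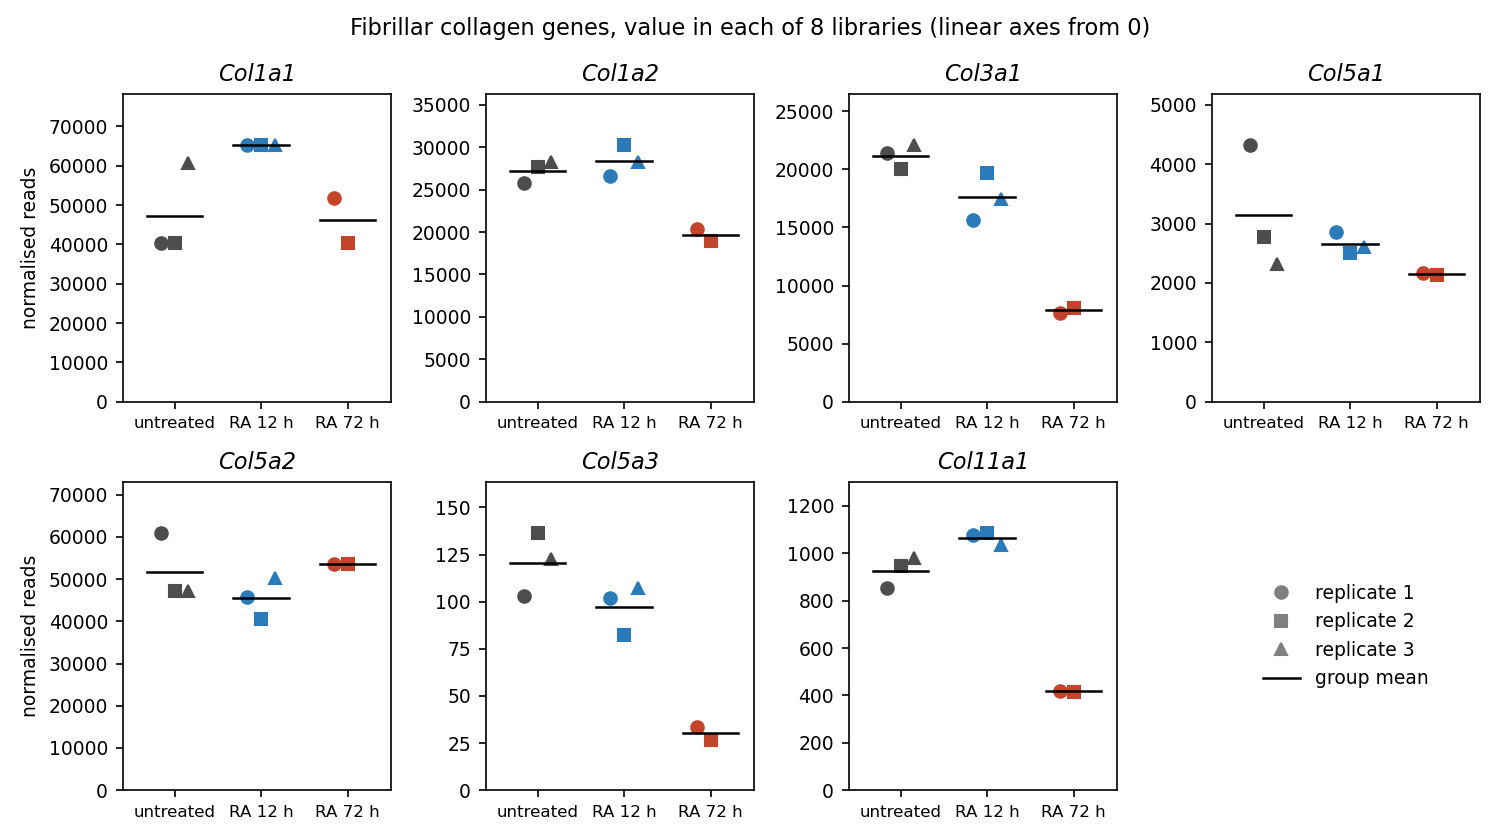
Normalised reads of each fibrillar collagen gene in the 8 libraries, in 1 panel per gene with a linear axis from 0; the x axis gives the group, marker shapes give the replicate number and bars the group mean. For Col3a1, Col5a3 and Col11a1 both RA 72 h libraries lie below all 6 others, while for Col5a2 they lie inside the untreated range.

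The type I collagen genes were not called in any contrast. Col1a1 read 40456, 40456 and 60831 normalised reads in untreated replicates 1 to 3, 65328 in each of the 3 libraries at 12 h, and 51846 and 40456 at 72 h. The 12 h libraries were thus above all untreated ones (20.0% of all genes tested had groups that did not overlap at 12 h, in either direction), while the 72 h libraries fell inside the untreated range. At these levels the shared distribution acts as a grid. The value 65328 is that of rank 7 in any library and 40456 that of rank 16, so the SD of 0 at 12 h says only that Col1a1 held the same rank in 3 libraries. The log2 change at 12 h was 0.50 ± 0.17 (SE, limma, adjusted p = 0.137), with 0.69 among the libraries of side 1 and 0.10 among those of side 2. Its limma adjusted p was below 0.05 without untreated replicate 3 (0.00618) and with the side of the within-group axis as a term (0.0388). The change stayed short of 2-fold there, at 0.69 and 0.39. At 72 h the log2 change was −0.02 with a 95% interval from −0.42 to 0.39 (adjusted p = 0.97). Between the RA groups it was −0.51 (limma adjusted p = 0.142). That adjusted p was below 0.05 without untreated replicate 3 (0.0348), with the side as a term (0.0156) and with only the 2 groups compared (0.0404).

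Col1a2 encodes the partner chain of type I collagen. It read 25760, 27694 and 28274 normalised reads untreated, 26652, 30273 and 28274 at 12 h, and 20412 and 18923 at 72 h. The 2 late libraries were below all others, and the first 2 groups overlapped. Late libraries lay below all untreated ones in 5 of the 7 members, beside 19.4% of all genes tested, and below all 12 h ones in 6 of 7, beside 19.2%. The fall against untreated cells was 1.39-fold (95% interval 1.15 to 1.66; log2 change −0.47 ± 0.12 SE; limma adjusted p = 0.0239), and against 12 h it was 1.44-fold (adjusted p = 0.0214). The fall against untreated cells was of like size on each side of the within-group axis, −0.50 and −0.47. Its limma adjusted p was above 0.05 with no filter (0.135), a replicate block (0.0888) and only the 2 groups compared (0.067). It was below 0.05 in the other settings that kept both 72 h libraries. With both 72 h libraries kept, the adjusted p against 12 h was above 0.05 with no filter (0.132) and a replicate block (0.0896). It was also above 0.05 without RA 12 h replicate 1 (0.0533) or 2 (0.11). With RA 72 h replicate 1 or 2 left out, the log2 change against 12 h was −0.58 or −0.47. At 12 h the log2 change was 0.06 (adjusted p = 0.827).

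Col3a1, the gene of type III collagen, was called lower at 72 h in both contrasts. Untreated libraries held 21429, 19989 and 22110 normalised reads (21176 ± 1083, SD, n = 3). At 12 h they held 15625, 19652 and 17474 (17584 ± 2016, n = 3), and at 72 h 7665 and 8071 (7868 ± 287, n = 2). The 3 groups did not overlap, and the order untreated, 12 h, 72 h held in every pair of libraries. The first step was not past the test, with a log2 change of −0.27 ± 0.11 (SE, limma, adjusted p = 0.239). The later ones were: −1.43 ± 0.13 against untreated cells (adjusted p = 8.25e-06; 95% interval of the fold 2.23 to 3.25) and −1.15 ± 0.13 against 12 h (adjusted p = 0.000157). Within the sides the 72 h change was −1.36 and −1.53. The gene went from ranks 32 to 37 of the untreated libraries to ranks 134 to 144 at 72 h.

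Of the 3 type V collagen genes 1, Col5a3, was called. Col5a2 encodes the alpha 2 chain, and its level was 60831, 47208 and 47208 normalised reads untreated, 45846, 40456 and 50218 at 12 h, and 53627 in both libraries at 72 h. The untreated range encloses the late values, which are again 1 shared rank, the 10th. Its log2 change was −0.18 at 12 h (limma adjusted p = 0.558) and 0.06 at 72 h (adjusted p = 0.858), with a 95% interval from −0.28 to 0.40 that leaves out a loss of the size seen for its neighbour Col3a1.

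Col5a1, the alpha 1 chain that type V molecules generally contain, read 4325, 2772 and 2320 normalised reads untreated, 2858, 2505 and 2610 at 12 h, and 2172 and 2125 at 72 h. The late libraries were the lowest, and untreated replicate 1 stood well above the other 7. The log2 change at 72 h was −0.50 ± 0.19 (SE, limma, adjusted p = 0.134; 95% interval −0.91 to −0.08). It was −0.70 within side 1 and −0.09 within side 2. At 12 h the 2 sides differed in sign, −0.41 against 0.21. Without untreated replicate 1, which had the highest value, the 72 h change was −0.24 and the 12 h change turned from −0.19 to 0.07. Without untreated replicate 3 the 72 h change was −0.69 (limma adjusted p = 0.00777). With the side as a term it was −0.46 (limma adjusted p = 0.0308). Both are short of 2-fold.

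Col5a3, the alpha 3 chain, which is found in fewer tissues, had the largest fold change of the 7 genes at 72 h. It read 103, 136 and 123 normalised reads untreated (120.6 ± 16.8, SD, n = 3), 102, 82.1 and 107 at 12 h (97.0 ± 13.2, n = 3), and 33.8 and 26.8 at 72 h (30.3 ± 4.95, n = 2). The untreated and 12 h libraries overlapped, and every 72 h library was below all of them. The log2 change was −0.31 ± 0.18 at 12 h (SE, limma, adjusted p = 0.42), −1.96 ± 0.20 at 72 h (adjusted p = 2.84e-05; 95% interval of the fold 2.89 to 5.25) and −1.65 ± 0.20 between the RA groups (adjusted p = 0.000302). Within sides 1 and 2 the change at 72 h was −2.11 and −1.83, and that between the RA groups −1.96 and −1.41. The level of reads that long genes collect along their whole span, scaled to the span of Col5a3, equals 17.6 to 20.0% of its value at 72 h and 2.38 to 7.25% elsewhere. With that level subtracted the change at 72 h was −2.19.

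Col11a1, whose alpha 1(XI) chain can also join type V chains, was lower at 72 h and had its highest values at 12 h. It read 853, 948 and 980 normalised reads untreated (926.9 ± 65.9, SD, n = 3), 1078, 1084 and 1034 at 12 h (1065 ± 27.5, n = 3), and 419 and 416 at 72 h (417.5 ± 1.59, n = 2). The 12 h libraries were above all untreated ones and the late libraries below all others. The early change of 0.20 ± 0.10 on the log2 scale did not pass (SE, limma, adjusted p = 0.313). The late change of −1.15 ± 0.11 did (adjusted p = 1.25e-05; 95% interval of the fold 1.89 to 2.60), as did that between the RA groups, −1.35 ± 0.11 (adjusted p = 2.25e-05). On the 2 sides of the within-group axis the late change was −1.11 and −1.23.

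**Figure D2:**
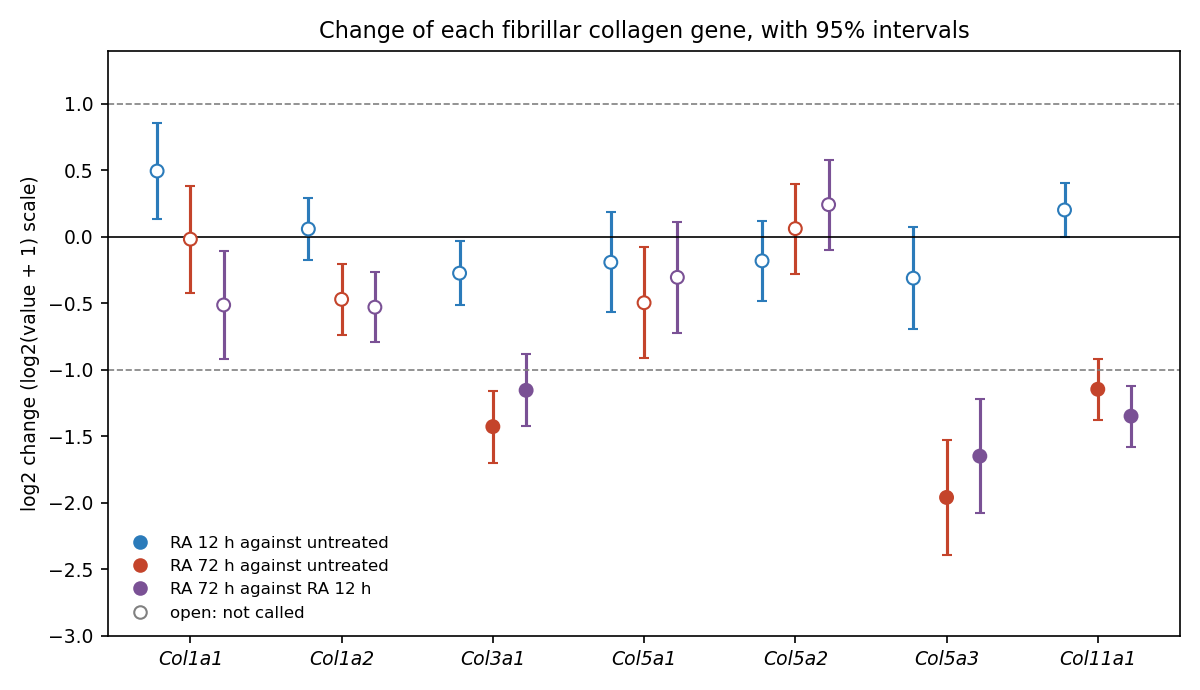
Log2 change of the 7 genes on the log2(value + 1) scale in 3 contrasts, with 95% intervals from limma; filled points are called and dashed lines mark 2-fold. Filled points are found for Col3a1, Col5a3 and Col11a1 in both contrasts that involve 72 h, from −1.15 to −1.96, and for no gene at 12 h.

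The ratio of 2 chains, of the same or of different collagen types, was also taken within each library. A scaling common to the library cancels there, but the grid of the shared distribution does not. A ratio compares tags of 2 genes, so its changes between groups can be read but not its level. Of 6 ratios, Col3a1 to Col1a1 was the 1 that passed the test between the 3 groups. Its log2 value was −1.13 ± 0.29 untreated (SD, n = 3), −1.90 ± 0.17 at 12 h (n = 3) and −2.54 ± 0.31 at 72 h (n = 2). The groups did not overlap, with −1.46 to −0.92, then −2.06 to −1.73, then −2.76 to −2.33. At 12 h the log2 change was 0.50 for Col1a1, whose values lie on that grid, and −0.27 for Col3a1, and neither was called. The exact permutation test of the F statistic over the 560 assignments of libraries to groups gave p = 0.00357, or 0.0214 after Benjamini-Hochberg adjustment over the 6 ratios, which is the smallest p these assignments can give, since both groups of 3 can be exchanged.

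The other 5 ratios did not pass. Col5a3 to Col5a1 was lower by 1.46 on the log2 scale at 72 h than in untreated cells (exact permutation p = 0.0679, adjusted 0.123), and Col11a1 to Col5a1 was lower by 0.65 (exact p = 0.0607, adjusted 0.123). In both of these ratios untreated replicate 1, with its high Col5a1, lay far below the other untreated libraries. Col5a2 to Col5a1 was higher by 0.56 at 72 h (exact p = 0.0821, adjusted 0.123). Col1a1 to Col1a2 was higher by 0.44 at 12 h and 0.45 at 72 h (exact p = 0.125, adjusted 0.15). For Col5a1 to Col1a1 the exact p was 0.25 (adjusted 0.25).

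**Figure D3:**
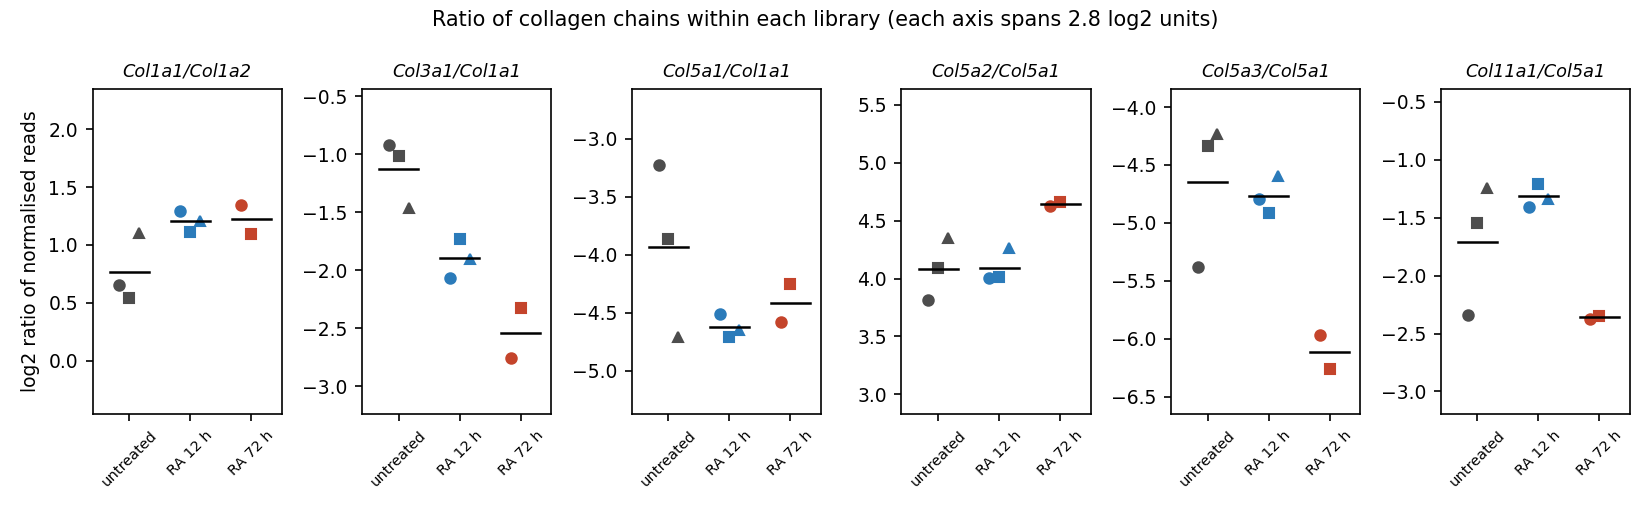
Log2 ratio of normalised reads of 2 chains in each library (y axis; every panel spans the same distance) by group (x axis), with marker shapes for replicates as in the plot of values and bars for means. The Col3a1/Col1a1 panel steps down from −1.13 to −1.90 to −2.54 with no overlap; in the Col5a3/Col5a1 panel both 72 h libraries lie below all others.

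The genes that serve these collagens were taken from 5 lists by role, with 78 of 92 symbols tested. At 12 h, 2 of the 78 were called higher and 0 lower by limma, beside 1.42% of all genes called in either direction, and 21 had an unadjusted p below 0.05, beside 16.3%. At 72 h 4 were called higher and 4 lower, against 2.15% and 1.52% of all genes. Between the RA groups 0 were called higher and 4 lower, against 0.765% and 0.734% of all genes. The same shares of all genes are the background for each list below. The median log2 change of the 78 genes was −0.00 at 12 h and −0.07 at 72 h.

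Among the 19 tested genes of chain folding and modification, which include the prolyl and lysyl hydroxylases and the collagen chaperone Serpinh1, 1 was called, at 12 h, where 1.42% of all genes were. This was Creb3l1, a membrane-bound factor that is released under secretory load and drives Col1a1 in bone. It read 289, 288 and 295 normalised reads untreated, 607, 640 and 563 at 12 h, and 290 and 349 at 72 h. The 12 h libraries stood apart and the late ones were back near the untreated level: the log2 change was 1.05 ± 0.11 at 12 h (SE, limma, adjusted p = 4.64e-05) and 0.13 at 72 h (adjusted p = 0.571). With no fold minimum, 1 of the 19 genes was higher at 72 h and 3 lower, beside 771 and 685 of all 12673 genes. P4ha1 was higher (0.61, limma adjusted p = 0.0237). Fkbp14 (−0.92, adjusted p = 0.00295), P4hb (−0.42, adjusted p = 0.04) and Sec23a (−0.40, adjusted p = 0.0287) were lower.

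Of 13 genes of propeptide removal and crosslinking, 1 was called at 12 h (1.42% of all genes) and 2 at 72 h (3.67%). Loxl2, a lysyl oxidase that crosslinks collagen outside the cell, rose from 58.4, 56.8 and 63.6 normalised reads to 277, 247 and 254 at 12 h and to 296 and 279 at 72 h. All 5 RA libraries were above all untreated ones, and the log2 change was 2.10 ± 0.13 at 12 h (SE, limma, adjusted p = 5.04e-07) and 2.25 ± 0.14 at 72 h (adjusted p = 3.89e-07). Tll1, a protease of the family that removes the C-terminal propeptide, fell at 72 h, from 284, 298 and 274 normalised reads to 130 and 137 (log2 change −1.09 ± 0.13, adjusted p = 7.74e-05). It had read 259, 237 and 248 at 12 h. Bmp1, Adamts2 and Lox, the best known of these enzymes, were among those not called. With no fold minimum, 3 of the 13 were higher at 72 h and 2 lower, beside 771 and 685 of all 12673 genes. Among these, Loxl1 was higher (0.59, limma adjusted p = 0.0076) and Lox lower (−0.57, adjusted p = 0.0225).

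Of 11 fibril-associated genes tested, 4 were called at 72 h, beside 3.67% of all genes. Postn, the matricellular protein periostin, read 1002, 818 and 1099 normalised reads untreated, 764, 802 and 722 at 12 h, and 358 and 337 at 72 h (log2 change at 72 h −1.47 ± 0.13, SE, limma, adjusted p = 9.01e-06). Tgfbi, a related collagen-binding protein, changed by −1.41 ± 0.21 at 72 h (adjusted p = 0.000721), a change that was −1.08 on side 1 and −1.73 on side 2, and the small leucine-rich proteoglycan Aspn by −1.15 ± 0.17 (adjusted p = 0.000585). These 3 genes were lower in both 72 h libraries than in all 6 others. Col14a1, a collagen on the fibril surface, was higher at 72 h, at 70.5 and 54.8 normalised reads against 29.6, 16.8 and 38.1 untreated (log2 change 1.19 ± 0.30, adjusted p = 0.0213). Gene-body reads could make up 65.9 to 91.5% of its untreated values, and its call was lost in 7 of the alternatives tried. With no fold minimum, 3 of the 11 were higher at 72 h and 4 lower, beside 771 and 685 of all 12673 genes. Among these, Ogn (0.73, limma adjusted p = 0.00168) and Col12a1 (0.48, adjusted p = 0.0176) were higher and Bgn lower (−0.67, adjusted p = 0.000925). Fibril genes below the level needed for the test included Dcn, Lum and Fmod, which read 1 to 10.4 normalised reads although each has annotated GATC sites.

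No gene of the 14 tested for collagen receptors and turnover was called in any contrast by limma (6 had an unadjusted p below 0.05 at 12 h, beside 16.3% of all genes, and 3 at 72 h, beside 23.9%). With no fold minimum, 1 was higher and 1 lower at 12 h, beside 364 and 190 of all 12673 genes. These were Mrc2 (log2 change 0.77, limma adjusted p = 0.00558) and Timp3 (−0.53, adjusted p = 0.00681). At 72 h 1 was higher, again Mrc2 (0.74, adjusted p = 0.00758), beside 771 of all genes. Among 21 regulators of collagen genes, 2 were called higher at 72 h, beside 2.15% of all genes. Smad3, which carries the TGF-beta signal to the nucleus, read 776, 856 and 959 normalised reads untreated, 1697, 1694 and 1345 at 12 h, and 1914 and 1827 at 72 h (log2 change at 72 h 1.12 ± 0.13, SE, adjusted p = 8.34e-05). At 12 h it was higher by 0.87, short of 2-fold. Tgfb2, one of the TGF-beta ligands, read 107, 93.1 and 84.9 untreated and 191 and 216 at 72 h (log2 change 1.10 ± 0.17, adjusted p = 0.000813). With no fold minimum, 4 of the 21 were higher at 72 h and 2 lower, beside 771 and 685 of all 12673 genes. Among these, Tgfb1, another of the ligands, was lower (−0.73, limma adjusted p = 0.00285) and Smad7 was higher (0.46, adjusted p = 0.0152). Scx, a tendon factor that drives Col1a1, was called only between the RA groups, at −1.01 ± 0.14 (adjusted p = 0.000844), where the 2-fold minimum lies so near that 5 of the alternatives tried put it on the other side. Against untreated cells its log2 change at 72 h was −0.92, short of 2-fold (limma adjusted p = 0.000789).

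**Figure D4:**
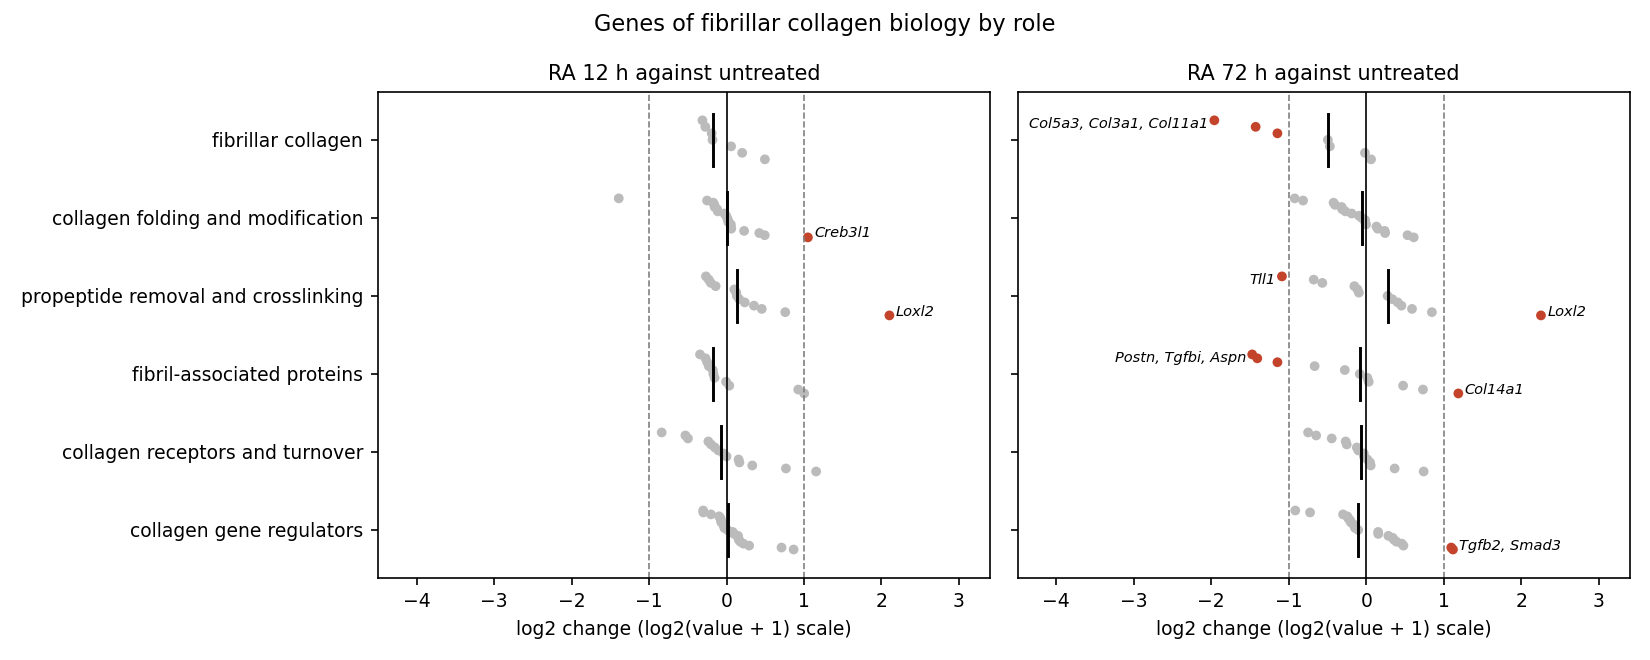
Log2 change (x axis) of every tested gene in 6 lists (rows) at 12 h and at 72 h of RA against untreated cells, with called genes in red and named, the median of each list as a black bar and dashed lines at 2-fold. At 72 h the fibrillar collagen median lies at −0.50, while the medians of the 5 other lists lie between −0.10 and 0.28.

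The genes whose profile over the 8 libraries was most like that of each called member were found by the root mean square distance of log2 values centred on each gene's mean, among 9477 genes with a mean of at least 50. For Col3a1 they were Postn (0.11), Vcan (0.13), a matrix proteoglycan, and Plk2 (0.14), a kinase. For Col5a3 they were Mme (0.21), a membrane peptidase, Lcn2 (0.23) and Dnm1 (0.23). For Col11a1 they were Pcdh19 (0.09), a protocadherin, BC029169 (0.13) and Glt28d2 (0.15). Among the members themselves Col3a1 and Col11a1 lay at a distance of 0.23, Col3a1 and Col5a3 at 0.32, and Col11a1 and Col5a3 at 0.36. Of the members not called, Col1a2 lay at 0.33 from Col11a1, nearer than Col5a3 did, and at 0.38 from Col3a1. Col3a1 and Col1a1 lay at 0.59.

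The promoters of the 3 members called lower at 72 h are shown to let their letters be compared. The promoter table used here, from RefSeq (build GRCm38.p6), was matched for 5 of the 7 members, Col1a2, Col3a1, Col5a1, Col5a3 and Col11a1, and the 250 bases before each start were searched on both strands for 4 motifs. CCAAT is bound by the factor NF-Y. The motif TATAAA places the start site of some genes. The motif GGGCGG is bound by Sp1 and its relatives. The motif AGGTCA is a half-site of nuclear receptors, RA receptors among them. No 2 of these motifs contain one another. Matches on either strand are in capitals.
Col3a1, GRCm38.p6 chr1:45311288-45311537, plus strand: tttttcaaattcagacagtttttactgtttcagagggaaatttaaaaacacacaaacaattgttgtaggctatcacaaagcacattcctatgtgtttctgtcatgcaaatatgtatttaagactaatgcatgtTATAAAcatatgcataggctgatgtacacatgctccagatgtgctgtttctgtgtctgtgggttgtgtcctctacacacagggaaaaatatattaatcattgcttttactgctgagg
Col5a3, GRCm38.p6 chr9:20815068-20815317, minus strand: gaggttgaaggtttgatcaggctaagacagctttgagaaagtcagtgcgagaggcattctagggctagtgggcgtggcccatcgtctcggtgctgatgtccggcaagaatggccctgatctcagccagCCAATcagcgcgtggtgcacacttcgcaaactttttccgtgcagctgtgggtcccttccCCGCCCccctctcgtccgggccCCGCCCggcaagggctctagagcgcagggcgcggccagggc
Col11a1, GRCm38.p6 chr3:114030290-114030539, plus strand: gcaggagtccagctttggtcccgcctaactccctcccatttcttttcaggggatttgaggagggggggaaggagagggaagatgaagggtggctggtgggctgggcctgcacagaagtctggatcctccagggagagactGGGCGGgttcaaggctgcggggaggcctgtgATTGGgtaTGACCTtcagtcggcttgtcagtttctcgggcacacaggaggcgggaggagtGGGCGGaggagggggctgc
Col3a1 had 1 match, TATAAA at 117 bases before the start, and a GC content of 35.2%. Col5a3 held CCAAT at 122 bases and GGGCGG at 63 and 41 bases before the start, with 62.8% GC. Col11a1 held CCAAT at 79 bases, GGGCGG at 110 and 19 bases and AGGTCA at 71 bases, with 62.4% GC. No motif was present in all 3. In the 250 bases before the start of all 32851 promoters of the table, CCAAT was in 33.8%, TATAAA in 12.4%, GGGCGG in 32.7% and AGGTCA in 14.0%, and their median GC content was 52.4%. Of the members that were not called, Col1a2 held CCAAT once and GGGCGG at 2 places, and Col5a1 held GGGCGG at 2 places.

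Other collagen chains give a point of comparison. Those tested include Col2a1, Col11a2, Col24a1 and Col27a1, which also belong to the fibrillar class. Of the 25 tested, 2 were called higher at 72 h, Col8a1 and Col14a1, and 3 lower, Col6a3 (log2 change −3.73), Col6a2 (−2.02) and Col7a1 (−1.63), beside 2.15% and 1.52% of all genes. The median log2 change was 0.04 over these 25 genes and −0.50 over the 7 members. The summed level of the fibroblast markers was 107777 to 115603 normalised reads untreated, 88251 to 99355 at 12 h and 108307 to 108484 at 72 h, a sum made up almost entirely of Vim. Of the 7 tested, Pdgfra was called at 12 h (log2 change 1.49, limma adjusted p = 2.67e-06). At 72 h no marker was called, but 3 were higher at an adjusted p below 0.05, Pdgfra by 0.98, Pdgfrb by 0.51 and Prrx1 by 0.45 on the log2 scale, and Cd34 was lower (−0.75). The 5 cartilage markers summed to 41.1 to 53.9 untreated and 25.1 to 36.3 at 72 h. The part of these cell type markers in the collagen changes was not tested.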

How the data were processed

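Gene values came from 8 libraries of polyA RNA. Per the labels they are DpnII tag libraries aligned to mm9, while the study's methods describe fragmented RNA-seq aligned with Tophat, counted with Cufflinks on Ensembl genes and normalised with DESeq. Those methods also give a shorter second RA time, where the labels and the study's results give 72 h, which is used here. The deposited table holds other values than raw counts: normalised reads per gene, which the authors had made share 1 set of sorted values in all 8 columns (floor 1, decimal commas). Depth is therefore not known, and no counting interval is given. Columns of the authors' averages and log2 ratios were not used.

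Here log2(value + 1) was fitted with limma 3.58.1 in R 4.3.3, with a variance trend, 3 groups in 1 fit, and a mean of at least 10 over 8 libraries. P-values were adjusted by the Benjamini-Hochberg method over all 12673 genes tested. Fold changes are on the log2(value + 1) scale and understate those of low genes. The fit was also run on simulated data as a check of the code, with no outcome given here. Chain ratios were compared by an exact permutation test over libraries. Gene-body background was the 25th percentile of value per Mb over 943 genes spanning at least 200 kb, times the span of a gene. Positions and tags come from mm9 with GENCODE annotation. Levels per length were not used, because the values behave as tags.

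Members and lists were chosen with earlier results of these data known. Named were all members, pathway genes called in any contrast, other collagen chains called, and the 3 genes nearest in profile to each called member. Some pathway genes that were not called are named as well. Alternatives were pseudocount 10, no filter, leaving out each library, a replicate block, the side of the within-group axis as a term, background subtraction, only the 2 groups compared, and 2 other thresholds, among them the 2-fold and unadjusted p rule of the study. No protein sequences were used here.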

Additional observations from a re-analysis of the deposited data

Results flagged for a closer look

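In 3 members of the fibrillar collagen family the effect of RA at 72 h differed from that at 12 h by the direct limma test between the RA groups. The log2 difference, 72 h against 12 h, was −1.15 for Col3a1, −1.65 for Col5a3 and −1.35 for Col11a1, and both late libraries were below all 3 early ones in each. The same test marked 4 genes of the pathway lists, Postn (−1.13), Tgfbi (−1.18), Aspn (−1.18) and Scx (−1.01), also with both late libraries below all 3 early ones. Of all genes tested, 0.734% were called lower in this contrast and 19.2% had both late libraries below all early ones. RA time and time in culture cannot be told apart in this contrast.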

How the results depend on the processing

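The number of fibrillar collagen genes called (0 at 12 h, 3 at 72 h and 3 between the RA groups) was the same under every alternative except the threshold with no fold minimum, which gave 0, 4 and 4. Col3a1, Col5a3 and Col11a1 kept their direction and their calls throughout. Over all settings their log2 change at 72 h ran from −1.47 to −1.39, −2.19 to −1.70 and −1.20 to −1.10. Changes of members that turned sign were all small and not called. With 1 library left out, Col1a1 at 72 h ranged from −0.20 to 0.18 (0.18 without untreated replicate 3, 0.16 without RA 72 h replicate 2) and Col5a1 at 12 h from −0.38 to 0.065 (without untreated replicate 1). Of pathway genes, Creb3l1 at 72 h ranged from −0.0007 to 0.26, Aspn at 12 h from −0.12 to 0.16, with −0.062 when the side of the within-group axis was a term, and Scx at 12 h from −0.018 to 0.16. The cause was not tested.

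Replicate numbers did not pair the libraries: deviations of same-numbered libraries correlated at −0.47 to 0.42. With the replicate block the count of members called stayed at 0, 3 and 3, Col1a1 at 72 h was 0.081 and Scx between the RA groups was −0.99.

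Pathway genes called at 12 h rose from 2 to 4 with the side as a term, to 5 under the rule of the study and to 8 with no fold minimum. They ranged from 2 to 4 when 1 library was left out, with 4 without untreated replicate 3 and without RA 12 h replicate 3. With no fold minimum they numbered 23 at 72 h and 12 between the RA groups. Other named pathway genes lost a call in 16 settings and gained one in 5. Tgfbi between the RA groups was −0.85 without RA 72 h replicate 1 and Aspn at 72 h −0.91 without RA 72 h replicate 2. All genes called at 12 h numbered 180, but 322 without untreated replicate 3 and 554 with no fold minimum, which gave 1456 in place of 465 at 72 h and 740 in place of 190 between the RA groups. The count of chain ratios that differed ran from 0 to 2 when 1 library was left out. With 7 libraries the smallest adjusted p that 1 ratio can reach alone is 0.0571 or 0.0857, so a call lost there says nothing. It was 2 without untreated replicate 1, where Col5a3 to Col5a1 also passed (exact permutation, adjusted p = 0.0286).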
